A study of Mus musculus with 46 samples.

Results

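The SGK kinase family of the mouse has 3 genes, Sgk1, Sgk2 and Sgk3, and their transcripts were followed in BNST (bed nucleus of the stria terminalis) tissue after chronic intermittent ethanol vapor. The members were every probeset that the platform annotation assigns to 1 of these 3 symbols alone, which gave 5 of 45037 probesets: 1416041_at for Sgk1, 1418739_at for Sgk2, and 1420919_at, 1450036_at and 1420918_at for Sgk3. The family was proposed because Sgk1 and Sgk3 were high in CIE mice at 0 h and 8 h, so the members were selected on the CIE to Ctrl differences at these times, which are given as a description with no test. The values at 72 h and 7 d were not part of that choice and were tested.

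BNST, a forebrain region of the extended amygdala, was taken from 46 adult male C57BL/6J mice, with 1 mouse per array. Mice of the chronic intermittent ethanol group (CIE, 22 arrays) had 4 cycles of ethanol vapor, each of 4 days with 16 hours a day in the chamber, with 7 days of abstinence between cycles, and received ethanol at 1.6 g/kg with pyrazole at 1 mmol/kg before the sessions. Control mice (Ctrl, 24 arrays) were kept in air and received saline with the same dose of pyrazole, an inhibitor of alcohol dehydrogenase, so both groups carry that drug and the handling, and no untreated mice were part of the comparison. Brains were taken at 4 times counted from the end of the last session, 0 h, 8 h, 72 h and 7 d, with 6 mice per group except for CIE at 7 d with 4. The values are log2 probeset intensities, on which a difference of 1 is a doubling. They can be compared between mice for 1 probeset but not between probesets.

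SGK kinases belong to the AGC family, as do the AKT and protein kinase C enzymes, and are switched on downstream of phosphoinositide 3-kinase by phosphorylation through PDK1 (Pdpk1) and the mTORC2 complex (Rictor). Sgk1 is regulated above all at the level of its transcript, which glucocorticoids, mineralocorticoids, serum and cell shrinkage induce within a short time, and its protein is rapidly degraded. Sgk3 carries a PX domain that holds it on endosomes through a phosphoinositide lipid, while Sgk2 lacks that domain. Known targets include NDRG1, the ubiquitin ligase NEDD4L, which removes ion channels from the membrane, and the transcription factor FOXO3.

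Sequence upstream of Sgk1 is shown because the gene is a textbook target of the glucocorticoid receptor, which binds an inverted repeat known as the glucocorticoid response element. RefSeq sequence (GRCm38.p6) was available for 6 start sites of Sgk1, all on the plus strand of chromosome 10, as windows of 250 bases before to 50 after each start. No window was used here for Sgk2 or Sgk3. The windows were searched on both strands for 5 motifs. These were the full element (AGAACA, any 3 bases, TGTTCT), a single arm of it (AGAACA or TGTTCT, both of which the full element contains), the forkhead motif, the cAMP element and the TATA box. The full element stood in 1 of the 6 Sgk1 windows and in 3 of all 32851 windows. In the stretch of 115 bases at chr10:21993651-21993765 the capitals mark its arms, which lie 189 to 175 bases before that start site.
Sgk1, glucocorticoid response element: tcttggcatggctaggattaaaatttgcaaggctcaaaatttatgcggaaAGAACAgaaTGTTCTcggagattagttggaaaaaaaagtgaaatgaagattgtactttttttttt

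Windows of other start sites held the letters of a TATA box (TATAAA, in capitals), found in 2 of the 6 Sgk1 windows and in 13.6% of all windows. The first match lies 28 to 23 bases before its start site and the second 11 to 6 bases before. Both stretches, at chr10:21992145-21992222 and chr10:21994605-21994665, end at the base before a start site.
Sgk1, first TATA box: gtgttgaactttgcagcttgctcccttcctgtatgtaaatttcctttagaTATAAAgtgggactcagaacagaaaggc
Sgk1, second TATA box: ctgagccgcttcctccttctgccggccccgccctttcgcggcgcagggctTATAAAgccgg
A single arm was present in 3 of the 6 Sgk1 windows and in 19.0% of all windows. The forkhead motif (3.65% of all windows) and the cAMP element (1.79%) were found in 0 of 6. Among 26 windows of 21 other genes induced by glucocorticoids, 0 held the full element and 2 a single arm (Sult1a1 and Tsc22d3). A match is a run of letters in a short window and was not tested as a binding site.

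Sgk1 was the family member with the widest course in CIE mice. Its mean level covered a range of 1.61 on the log2 scale over the 4 times in CIE mice and of 0.60 in Ctrl mice. At 0 h the lowest, median and highest values were 12.84, 12.95 and 13.16 in CIE mice, against 12.09, 12.34 and 12.49 in Ctrl mice. The groups did not overlap, with all 6 CIE mice above. A separation of this kind, in one direction or the other, was seen for 2.50% of all probesets at 0 h. The difference of the means was 0.67 (SE 0.13), or 1.59-fold. The values at 0 h and 8 h took part in choosing the family. At 8 h the values were 11.99, 12.69 and 12.82 in CIE mice and 11.42, 11.73 and 12.02 in Ctrl mice. There 5 of 6 CIE mice were higher than all Ctrl mice, replicate 69 was the exception, and the difference was 0.87 (SE 0.13), or 1.82-fold.

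At 72 h the order of the groups was the other way round for Sgk1. The CIE mice had 11.19, 11.26, 11.27, 11.30, 11.47 and 11.75, against 11.65, 11.74, 11.83, 11.83, 11.98 and 12.52 in the Ctrl mice. All but 1 CIE mouse lay below every Ctrl mouse, and the highest Ctrl value (replicate 34) stood well above the next. The means were 11.37 ± 0.21 in CIE mice and 11.92 ± 0.31 in Ctrl mice (SD, n = 6 each), a difference of -0.55 (95% interval -0.82 to -0.29). With limma and an FDR of 0.01 or less as the threshold, adjusted over all probesets, this did not pass (adjusted p = 0.0189). It passed with arrays weighted by their quality (-0.53, adjusted p = 0.00395). That fit called 1151 probesets at 72 h, against 195 without weights. Sgk1 passed too with 2 residual components as covariates (-0.55, adjusted p = 0.00646). These components were taken from the residuals of the same fit. They could lower the error but not move the difference, so that pass adds no support. In 46 fits without 1 array Sgk1 passed in only 2. Without CIE 72 h replicate 29, the highest CIE mouse, it passed with a difference of -0.63 and an adjusted p of 0.00895. Without CIE 8 h replicate 69, which changes the pooled spread only, it passed at an adjusted p of 0.00991. Without Ctrl 72 h replicate 34 the difference was -0.43 (adjusted p = 0.0726).

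At 7 d the groups overlapped for Sgk1. The 4 CIE mice had 11.75, 11.78, 11.95 and 12.02, and the Ctrl mice lay between 11.50 and 12.31 with a median of 12.09. The difference of -0.15 (95% interval -0.44 to 0.15) did not pass (limma, adjusted p = 1.00). Ordered by their means, Sgk1 levels ran CIE 0 h, CIE 8 h, Ctrl 0 h, Ctrl 7 d, Ctrl 72 h, CIE 7 d, Ctrl 8 h and CIE 72 h. Only CIE 0 h against CIE 8 h (a gap of 0.40) and Ctrl 8 h against CIE 72 h (0.35) were neighbours whose gap exceeded the SDs of both groups. CIE 72 h was thus the lowest of the 8 groups, and Ctrl mice collected at 8 h were lower than Ctrl mice at 0 h by a gap of 0.60.

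**Figure D1:**
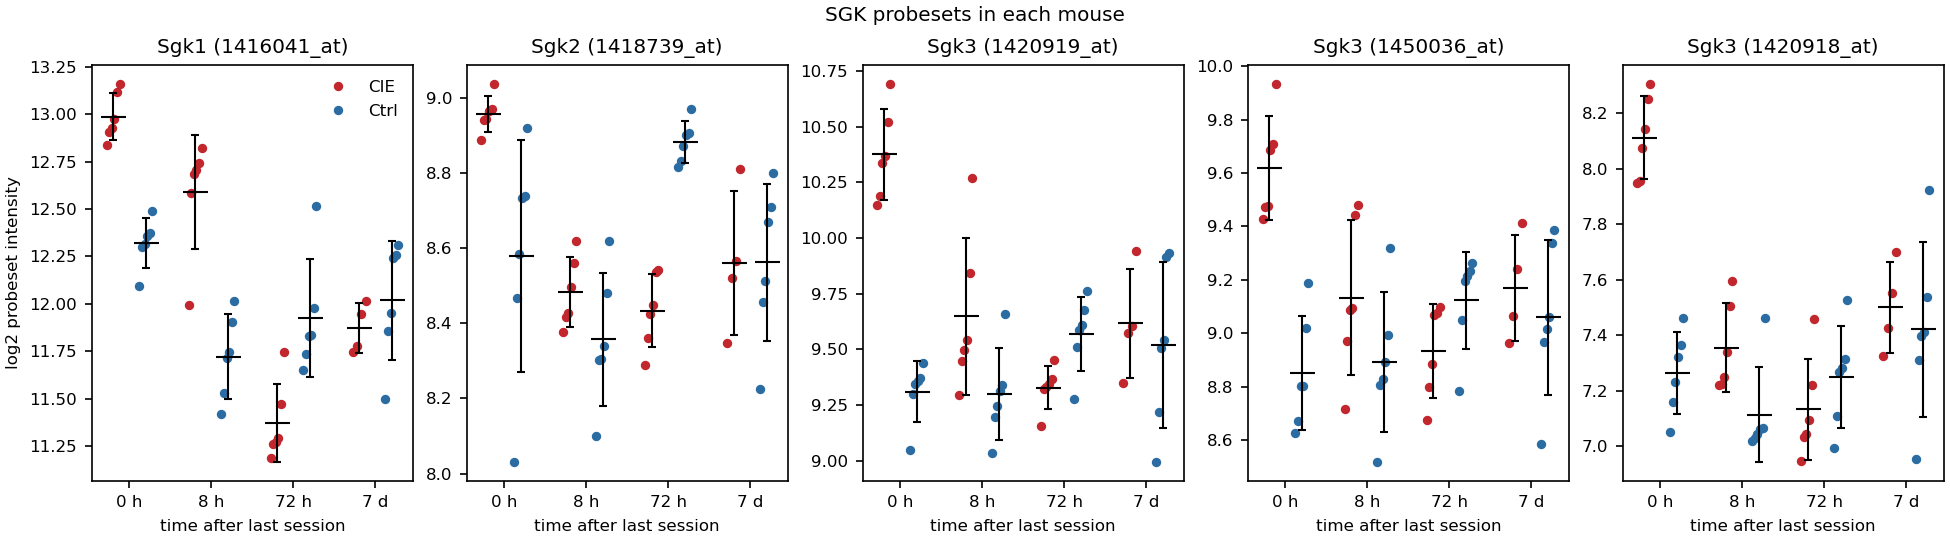
Log2 intensity of the 5 SGK probesets (y axes, a scale of its own in each panel) by time after the last session (x axes), 1 point per mouse, CIE in red left of Ctrl in blue, with the mean and SD in black (n = 6 per group, 4 for CIE at 7 d). Sgk1 and all Sgk3 probesets were highest in CIE mice at 0 h, a time on which the family was selected. For Sgk2 the 72 h groups did not overlap, as for 2.90% of all probesets in one direction or the other.

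Sgk2 had 1 probeset and the smallest range of group means in CIE mice, 0.52 on the log2 scale, the same as in Ctrl mice. At 0 h the CIE mice had 8.89, 8.95 and 9.04 (lowest, median and highest), against 8.03, 8.66 and 8.92 in the Ctrl mice, a difference of 0.38 (SE 0.095), with 5 of 6 CIE mice higher than all Ctrl mice. The Ctrl mice were widely spread there, and without the lowest of them, replicate 48, the difference was 0.27. At 8 h the difference was 0.13 (SE 0.095), with 1 CIE mouse barely above every Ctrl mouse.

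At 72 h, the first time tested, the Sgk2 groups did not overlap. CIE mice had 8.29, 8.36, 8.43, 8.45, 8.54 and 8.54, against 8.82, 8.83, 8.87, 8.90, 8.91 and 8.97 in Ctrl mice. Every CIE mouse lay below every Ctrl mouse, as was the case in one direction or the other for 2.90% of all probesets at 72 h. Sgk2 was 1.36-fold lower in CIE mice than in Ctrl mice at 72 h (log2 difference -0.45, SE 0.095, limma adjusted p = 0.00871). Of all probesets 0.129% were called lower and 0.304% higher in CIE mice at this time. The call was close to the threshold. In 46 fits without 1 array it passed in 29, at differences between -0.47 and -0.42, and it missed the threshold when any 1 of the 12 arrays of 72 h was left out (adjusted p between 0.0107 and 0.0319).

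The Sgk2 level of the Ctrl mice at 72 h was itself high. It averaged 8.88 ± 0.06 (SD, n = 6), above Ctrl mice at 0 h (8.58 ± 0.31), 8 h (8.36 ± 0.18) and 7 d (8.56 ± 0.21), while CIE mice at 72 h (8.43 ± 0.10) lay close to CIE mice at 8 h (8.48 ± 0.09) and 7 d (8.56 ± 0.19). In Ctrl mice at 7 d minus Ctrl mice at 72 h the Sgk2 difference was -0.32 (limma adjusted p = 0.0190, not passed), in a comparison that called 5.16% of all probesets. In the order of Sgk2 means, CIE 0 h was followed by Ctrl 72 h, Ctrl 0 h, Ctrl 7 d, CIE 7 d, CIE 8 h, CIE 72 h and Ctrl 8 h, and only the gap of the first pair exceeded both its SDs.

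At 7 d Sgk2 was at 8.35, 8.52, 8.57 and 8.81 in the CIE mice, against 8.22 to 8.80 with a median of 8.59 in the Ctrl mice. The difference was -0.0015 (95% interval -0.22 to 0.21, limma adjusted p = 1.00). The CIE effect at 7 d minus that at 72 h was 0.45 for Sgk2 (unadjusted p = 0.00311, adjusted p = 0.678), 0.40 for Sgk1 (unadjusted p = 0.0457, adjusted p = 0.877) and 0.34 for Sgk3 (adjusted p = 0.953), all from limma. That test of the change called 0% of all probesets at this threshold (0 of 45037, with 2542 at an unadjusted p under 0.05).

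Sgk3, the endosomal member, was read by 3 probesets that moved together across mice (r of 0.84 to 0.90 over 46 arrays, and 0.70 to 0.79 after the group means were removed, given as a description of arrays that share their normalization). At 0 h probeset 1420919_at had 10.15, 10.35 and 10.69 in CIE mice (lowest, median and highest), against 9.05, 9.35 and 9.44 in Ctrl mice. The difference was 1.07 (SE 0.13), or 2.09-fold. Probeset 1450036_at differed by 0.77, or 1.70-fold, and 1420918_at by 0.85, or 1.80-fold. In each of the 3 probesets all 6 CIE mice exceeded all Ctrl mice at 0 h, as for Sgk1. Such a separation, in one direction or the other, was seen for 2.50% of all probesets at 0 h, but these values took part in choosing the family.

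The Sgk3 difference was smaller at 8 h than at 0 h in all 3 probesets. Probeset 1420919_at had 9.29, 9.52 and 10.27 in CIE mice and 9.04, 9.28 and 9.66 in Ctrl mice at 8 h, a difference of 0.35 (SE 0.13), and 0.23 without CIE 8 h replicate 21. The other probesets differed by 0.24 each, and in each of the 3 only 2 of 6 CIE mice exceeded all Ctrl mice. No SGK probeset was fully separated at 8 h, against 1.10% of all probesets.

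Sgk3 passed no test at 72 h or 7 d. At 72 h 1420919_at had 9.16, 9.34 and 9.45 in CIE mice, against 9.28, 9.60 and 9.76 in Ctrl mice, a difference of -0.24 (95% interval -0.51 to 0.03, limma adjusted p = 0.488). Probeset 1450036_at differed by -0.19 (adjusted p = 0.622) and 1420918_at by -0.12 (adjusted p = 0.770). At 7 d the differences were 0.10, 0.11 and 0.08 (limma adjusted p = 1.00 each), with 9.35, 9.57, 9.60 and 9.94 in CIE mice and 8.99 to 9.93 with a median of 9.52 in Ctrl mice for 1420919_at. The intervals at 7 d reached -0.20 and 0.40 for that probeset, so differences smaller than these were not resolved.

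In the order of Sgk3 means, CIE 0 h stood apart in every probeset, by 0.73 from the next group in 1420919_at, 0.45 in 1450036_at and 0.61 in 1420918_at. No other gap between neighbours exceeded the SDs of both groups. At 7 d no probeset of the array was called for CIE against Ctrl (0%), while 1.12% were fully separated, none of them of this family. CIE mice at 7 d and at 72 h were compared too. Sgk1 was 0.50 higher at 7 d (limma adjusted p = 0.128) and Sgk3 probeset 1420918_at 0.37 higher (adjusted p = 0.156), neither passing, in a comparison that called 0.00222% of all probesets.

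**Figure D2:**
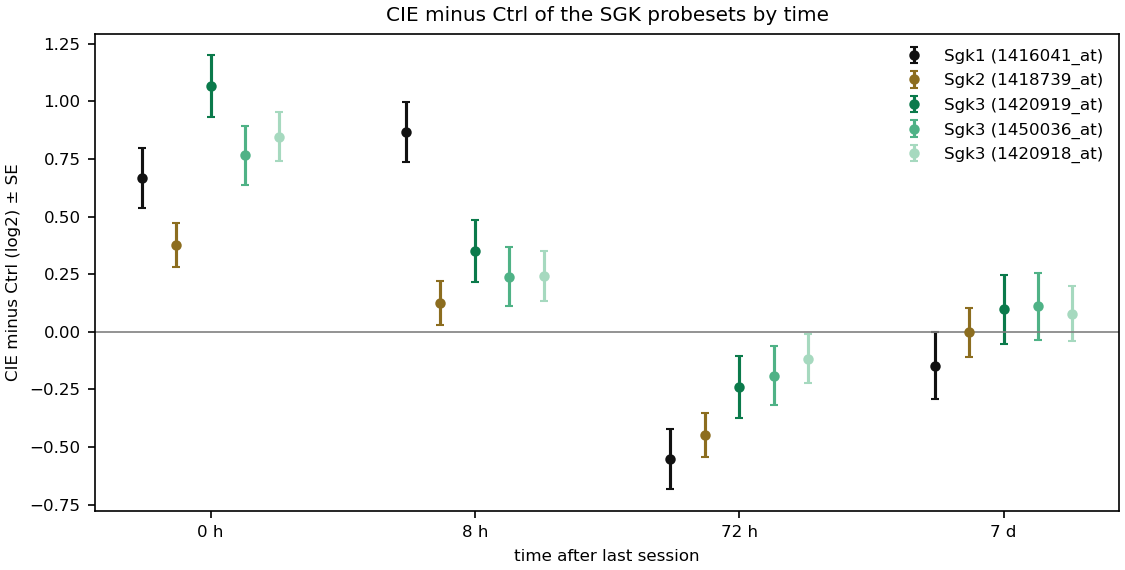
CIE minus Ctrl difference of the log2 means (y axis) of the 5 SGK probesets by time after the last session (x axis), with the standard error of the fit across all arrays. The points are above 0 at 0 h and 8 h, the times on which the family was selected, and below 0 at 72 h, where Sgk2 at -0.45 passed the test and Sgk1 at -0.55 did not.

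The family members followed each other only in part. Over the 46 arrays the Pearson r of Sgk1 with Sgk2 was 0.47, of Sgk1 with Sgk3 (1420919_at) 0.63 and of Sgk2 with Sgk3 0.66. After the group means were removed these were 0.22, 0.17 and 0.48. These r values are descriptions, since arrays of a group share treatment and time.

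Each member had its own set of most similar genes by r over the 46 arrays. For Sgk1 they were Plekhf1 (0.91), a protein of endosomes, Arrdc2 (0.90), Nfkbia (0.90), the inhibitor that holds NF-kB in the cytoplasm, Gm19439 (0.89) and Rhoj (0.89), a small GTPase. For Sgk2 they were Otud7b (0.90), a deubiquitinase, Plekha1 (0.87), Tmem125 (0.85), Cerox1 (0.85), a long noncoding RNA, and Stxbp3 (0.84), a partner of syntaxins in membrane fusion. For Sgk3 they were Phactr3 (0.94), a binding partner of protein phosphatase 1, Rasl11b (0.89), Kcna1 (0.86), a voltage-gated potassium channel, Pdrg1 (0.85) and Cdkn1a (0.85), the cell cycle inhibitor p21. By Spearman rank correlation the Sgk3 genes had lower values, 0.87 for Phactr3, 0.86 for Rasl11b, 0.73 for Kcna1, 0.74 for Pdrg1 and 0.65 for Cdkn1a. No gene was among the 5 of more than 1 member. After removal of the group means r was 0.53 to 0.75 for the Sgk1 genes, 0.69 to 0.84 for the Sgk2 genes and 0.61 to 0.83 for the Sgk3 genes.

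**Figure D3:**
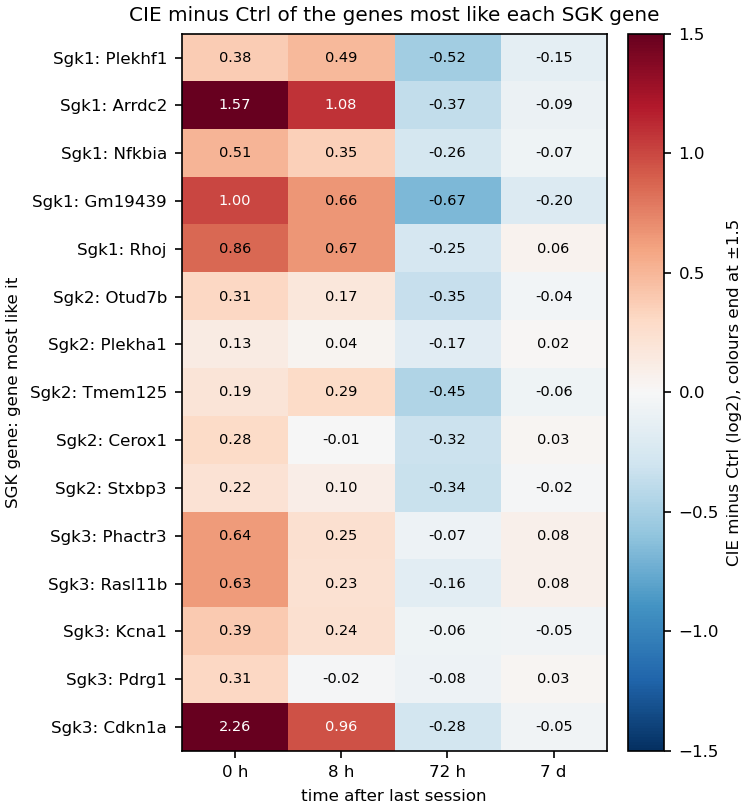
CIE minus Ctrl log2 difference (colour and printed value) at each time (x axis) for the 5 genes with the highest correlation to Sgk1, Sgk2 and Sgk3 over the 46 arrays (y axis). All 5 Sgk1 genes are positive at 0 h and 8 h and negative at 72 h. The Sgk2 genes are negative at 72 h with values of -0.45 to -0.17, and the Sgk3 genes are highest at 0 h. The genes were picked for their likeness over these same arrays, so a pattern shared with the member follows from the choice.

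Around the kinases, most of the genes that passed were glucocorticoid-induced. Rose and fell stand below for higher and lower in CIE mice than in Ctrl mice at the same time. The lists were written with earlier results of these data known, so the counts are descriptions. In 9 lists with 123 measured genes other than the SGK genes, 18 rose at 0 h and 0 fell, 14 rose at 8 h and 0 fell, 2 rose and 1 fell at 72 h, and 0 passed at 7 d (limma, FDR of 0.01 or less). Of all genes 1.55% were called higher and 1.54% lower at 0 h, 0.445% higher and 0.297% lower at 8 h, and 0.467% higher and 0.220% lower at 72 h. Of 23 measured glucocorticoid-induced genes 15 rose at 0 h and 14 at 8 h, with median differences of 0.51 and 0.47, against medians over all genes of 0.00090 and -0.0082. With only the compared groups in the fit, the genes called at 8 h over all 9 lists were 4 in place of 14.

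The glucocorticoid-induced genes with the largest rises at 0 h were Plin4 (2.51), a coat protein of lipid droplets, Cdkn1a (2.26), Arrdc2 (1.57) and Pdk4 (1.10), which restrains the use of glucose by mitochondria. At 8 h they were Plin4 (2.07), Sult1a1 (1.14), Arrdc2 (1.08) and Cdkn1a (0.96), each with a limma adjusted p below the threshold. The mean log2 value of the list per mouse lay between 10.05 and 10.32 in CIE mice at 0 h, against 9.24 to 9.54 in Ctrl mice, and between 9.65 and 10.15 in CIE mice at 8 h, against 9.21 to 9.36 in Ctrl mice. At 72 h 0 of 23 passed and the median was -0.14, with per-mouse means of 9.11 to 9.28 in CIE mice and 9.20 to 9.57 in Ctrl mice. At 7 d 0 of 23 passed and the median was -0.037.

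Upstream of the kinases, 1 of 17 activators passed, at 0 h, where 1.55% of all genes were called higher. Insr, the insulin receptor, rose at 0 h by 0.20 (limma adjusted p = 0.00744). It passed in 37 of 46 fits without 1 array, and its 2 other probesets differed by 0.03 and -0.04. Pdpk1 and Rictor, which stand for the PDK1 and mTORC2 inputs, passed at no time. Igf1, a growth factor, was 0.60 lower in CIE mice at 72 h without passing (adjusted p = 0.0447). Of 6 genes for corticosteroid receptors and access, Nr3c1, the glucocorticoid receptor, rose at 72 h. CIE mice lay between 10.60 and 10.72 and Ctrl mice between 10.29 and 10.50, with no overlap. At 72 h 2.90% of all probesets were separated in one direction or the other, and 0.467% of all genes were called higher. Nr3c1 rose by 0.26 (SE 0.048, limma adjusted p = 0.00301) and passed in 42 of 46 fits without 1 array. Its 5 other probesets differed by 0.05 to 0.26 and none passed. At 0 h, 8 h and 7 d Nr3c1 differed by 0.05, -0.02 and 0.06. Nr3c2, the mineralocorticoid receptor, passed at no time (0.04 at 72 h).

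Among 15 genes for known SGK substrates, Ndrg1 fell at 72 h and Foxo3 rose at 0 h. Of all genes 0.220% were called lower at 72 h and 1.55% higher at 0 h. Ndrg1 lay between 11.31 and 11.65 in CIE mice, against 11.71 to 11.91 in Ctrl mice. The groups did not overlap, as for 2.90% of all probesets at 72 h in one direction or the other. The Ndrg1 difference was -0.31 (SE 0.064, limma adjusted p = 0.00697), and it passed in 38 of 46 fits without 1 array. The 4 other Ndrg1 probesets differed by -0.28 to -0.44 with adjusted p between 0.0185 and 0.120, so none passed. At 0 h, 8 h and 7 d Ndrg1 differed by -0.01, -0.11 and 0.03. Foxo3 rose at 0 h by 0.30 (limma adjusted p = 0.000918), with all 6 CIE mice (9.18 to 9.33) above every Ctrl mouse (8.75 to 9.11). At 0 h 2.50% of all probesets were separated in one direction or the other. The 2 other Foxo3 probesets differed by 0.26 and -0.05, and neither passed. Ndrg2 and Nedd4l passed at no time. These are transcript levels, and the phosphorylation by which SGK kinases act on these proteins was not measured.

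Of 19 channels and transporters known to respond to SGK kinases only Slc2a1, the glucose transporter GLUT1, passed. It rose at 0 h, where 1.55% of all genes were called higher, by 0.34 (limma adjusted p = 0.000943), and its 2 other probesets were both 0.37 higher. At 72 h it was 0.27 lower in CIE mice without passing (adjusted p = 0.0258). In the list for the turnover of SGK proteins, with 7 measured genes, Tsc22d3 passed. Its protein GILZ protects SGK1 from degradation, and it is also a glucocorticoid target counted in both lists. Of all genes 1.55% were called higher at 0 h and 0.445% at 8 h. Tsc22d3 rose by 0.50 at 0 h (adjusted p = 4.35e-05) and by 0.61 at 8 h (adjusted p = 4.38e-06), and it was 0.25 lower at 72 h without passing (limma adjusted p = 0.102).

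Among the related kinases 1 gene passed, at 72 h, where 0.467% of all genes were called higher. Of 17 AKT and other AGC kinase genes, Prkacb, a catalytic subunit of protein kinase A, rose at 72 h by 0.28 (limma adjusted p = 0.00507), with 5 of 6 CIE mice higher than all Ctrl mice. It passed in 37 of 46 fits without 1 array, and its 2 other probesets differed by -0.04 and -0.05. Prkcd had the largest difference in the list, 1.41 at 72 h (9.59 ± 0.52 in CIE mice and 8.18 ± 0.17 in Ctrl mice, SD, n = 6 each), and did not pass (adjusted p = 0.0210). Akt1 and Akt2 passed at no time. Of 14 genes for PX domain proteins and endosomal sorting and 6 genes that respond to hypertonic stress, 0 passed at any time. The 3 list genes called at 72 h were 0 without Ctrl 72 h replicate 44, and 10 with array weights.

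**Figure D4:**
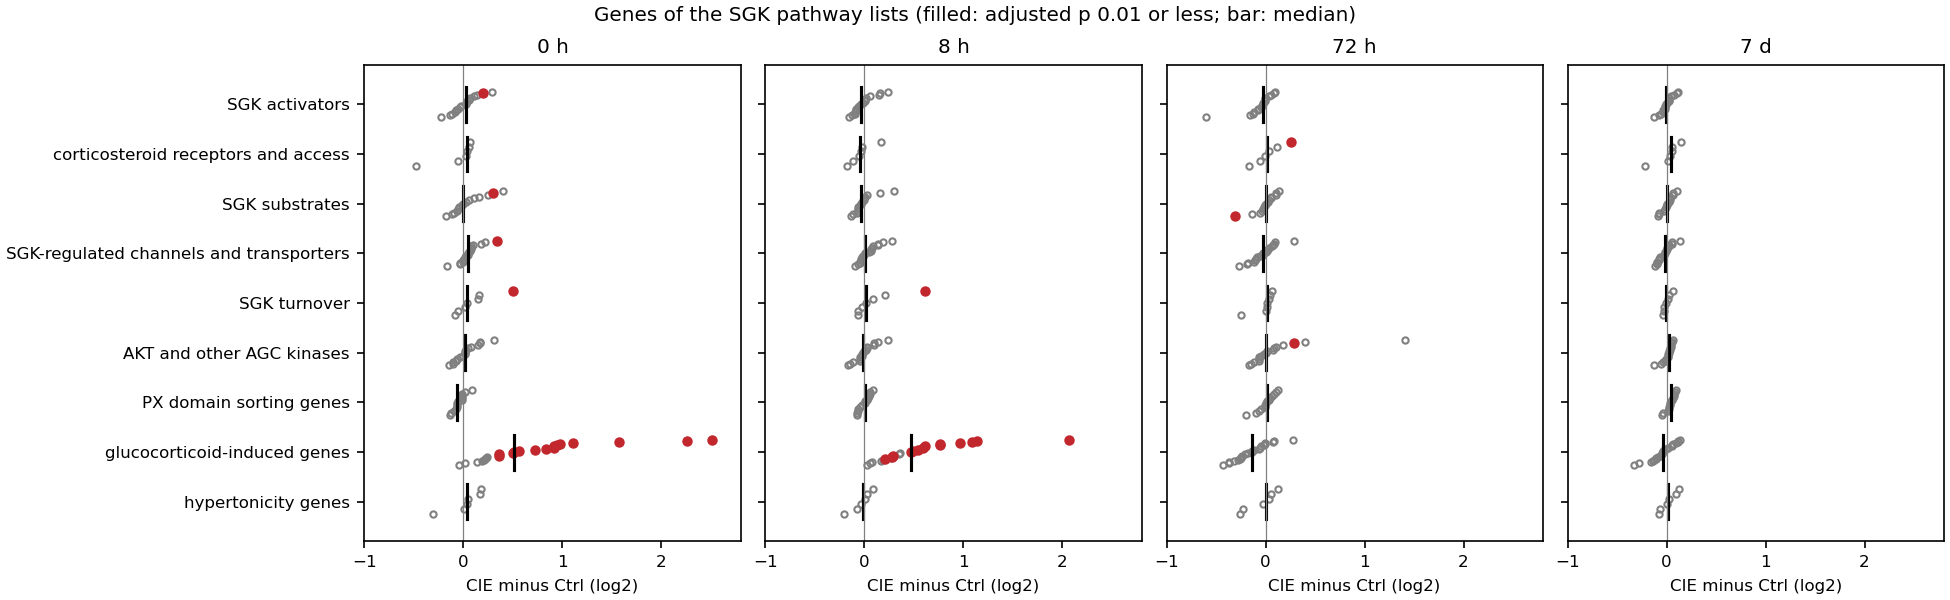
CIE minus Ctrl log2 difference (x axes) of each measured gene in 9 lists around the SGK kinases (rows) at 4 times (panels). Filled red points passed an FDR of 0.01 or less, and the black bar is the median of the list. Calls gather in the glucocorticoid-induced genes at 0 h and 8 h (15 and 14 of 23, with 4 list genes at 8 h where only the compared groups were fitted), and 0 list genes passed at 7 d. The lists were written with earlier results of these data known, so the counts are descriptions.

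Marker means of 4 glial lists were lower in CIE mice at 72 h, the time of the Sgk2 result. Of all genes 0.220% were called lower and 0.467% higher at 72 h, and 2.90% of all probesets were fully separated. How often the mean of a list separates all mice was not computed. The mean log2 value of 12 oligodendrocyte markers lay between 11.30 and 11.47 in CIE mice, against 11.56 to 11.66 in Ctrl mice, with all 6 CIE mice below every Ctrl mouse and a median difference of -0.24. Opalin, a myelin protein, was called lower (-0.39, limma adjusted p = 0.00901, passing in 22 of 46 fits without 1 array), Mag differed by -0.38 (adjusted p = 0.0125) and Mbp, the major myelin protein, by -0.01. The mean level of 11 microglial markers lay between 9.77 and 10.09 in CIE mice, against 10.25 to 10.36 in Ctrl mice, with C1qb and C1qc called lower, which passed in 11 and 33 of 46 fits without 1 array, and with 2 other C1qb probesets that did not pass. The 10 astrocyte markers (11.04 to 11.25 in CIE mice, 11.26 to 11.37 in Ctrl mice, S100b called lower, in 36 of 46 fits without 1 array, and its other probeset not) and the 8 markers of oligodendrocyte precursors (8.82 to 8.90 in CIE mice, 8.95 to 9.11 in Ctrl mice, Gpr17 called lower) were separated in the same direction. The astrocyte list had a median difference of -0.098, with 2 positive members (Slc1a2 0.06 and Slc1a3 0.02) and 8 negative. The precursor list had a median of -0.084, with 1 positive and 7 negative. Its members were uneven, from Gpr17 (-0.48) and Sox10 (-0.32) to Cspg4 (-0.03), Tnr (-0.002) and Matn4 (0.05). Of 10 neuronal markers none passed (12.11 to 12.21 in CIE mice, 12.12 to 12.17 in Ctrl mice).

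The part of these shifts in the 72 h values of Sgk2, Sgk1, Nr3c1 and Ndrg1 was not tested, and in tissue RNA fewer cells of a type cannot be told apart from less RNA per cell. Otx2 and Enkur, of the choroid plexus and ependymal markers, were called higher at 72 h, in a list with 7 positive and 3 negative differences (per-mouse means of 6.04 to 6.44 in CIE mice and 5.93 to 6.16 in Ctrl mice). Striatal markers, which can show how a dissection was placed, lay between 9.32 and 9.89 in CIE mice, against 9.60 to 10.20 in Ctrl mice at 72 h, and 8 markers of BNST peptide neurons between 10.76 and 11.04 in CIE mice, against 10.48 to 10.78 in Ctrl mice, with 5 of 6 CIE mice higher than all Ctrl mice and 0 markers called. At 0 h all 6 striatal markers were higher in CIE mice, by a median of 0.41, with 0 called. Their per-mouse means lay between 9.44 and 10.58 in CIE mice, against 9.13 to 9.99 in Ctrl mice. The oligodendrocyte marker means overlapped at 0 h (11.47 to 11.57 in CIE mice, 11.18 to 11.74 in Ctrl mice), with 1 marker of that list, Ugt8a, called lower (-0.39). Also called at 0 h were 2 microglial (Fcrls and Gpr34), 2 endothelial and 2 mural markers, lower in CIE mice, and Kl of the choroid plexus, higher (0.42). Of all genes 1.54% were called lower and 1.55% higher at 0 h. At 8 h Gpr17 (-0.50) and Fcrls (-0.86) were called lower, as were 0.297% of all genes. The part of these markers in the SGK values was not tested either.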

How the data were processed

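The deposited values are log2 probeset intensities of Affymetrix mouse arrays, 1 BNST per array. The authors ran RMA with quantile normalization batch by batch, quantile normalized the whole set once more and adjusted for the hybridization group with ComBat. The sources used here give no tool versions, no batch for a single array and no genome build: no within-batch value can be given, and no array coordinates were used. The 45037 probesets had array medians of 6.78 to 6.83, and arrays correlated at 0.981 to 0.998, none identical to another.

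Using limma (3.58.1, under R 4.3.3), 1 mean for each of the 8 groups was estimated from the 46 arrays together (38 residual degrees of freedom, median residual SD 0.135). Two-sided p values were adjusted by Benjamini-Hochberg over all probesets within a comparison, with 0.01 as the threshold. The code was tested on simulated data. The number of mice limits precision, and arrays give no count of molecules. Separate mice are the replicates.

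A gene was represented by the probeset with the highest mean among those with that symbol alone (18193 genes; 34945 probesets had 1 symbol, 932 several and 9160 none). The members and the gene lists, written from general knowledge, were chosen with earlier results of these data known, so list counts are descriptions. Named were all SGK probesets, up to 4 called members of each list per time with the largest differences, fixed genes (Nr3c1, Nr3c2, Nedd4l, Ndrg1, Ndrg2, Foxo3, Pdpk1, Rictor, Tsc22d3, Akt1, Akt2; 1 further item is not reported here) and the 5 genes most correlated with each member. Igf1 and Prkcd, the 72 h value of Slc2a1 and the marker genes were named after their values were seen. Alternatives were fits of the compared groups only, array weights, aligned array medians, a minimum mean log2 value of 5, 2 residual principal components as covariates, the mean of all probesets of a gene, a threshold of 0.05 and leaving out each array.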

Additional observations from a re-analysis of the deposited data

Results flagged for a closer look

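In 3 of 40 groups of mice and probesets 1 mouse stood far from the others of its group by Dixon's criterion, which chance alone meets in about 1 in 20 groups. Sgk1 was 11.99 in CIE 8 h replicate 69, the lowest of its group. Sgk3 was 9.05 on 1420919_at in Ctrl 0 h replicate 48, the lowest of its group and an array that also had the smallest array weight (0.243). Sgk3 was 7.46 on 1420918_at in Ctrl 8 h replicate 58, the highest of its group.

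At some pairs of times every CIE mouse lay above the Ctrl mean at one time and below it at the other. For Sgk1 the CIE effect was lower at 72 h than at 0 h (-1.22) and 8 h (-1.42), and lower at 7 d than at 0 h (-0.81) and 8 h (-1.01). For Sgk2 it was lower at 72 h than at 0 h (-0.83) and 8 h (-0.57). For Sgk3 it was lower at 72 h than at 0 h by -1.31 on 1420919_at and -0.96 on 1450036_at. These differences, on the log2 scale, were not tested, because the values at 0 h and 8 h chose the family.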

How the results depend on the processing

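No paired analysis was possible because each replicate number in the labels belongs to a single mouse and no 2 groups share one. All 5 SGK probesets kept the direction of their difference at 0 h, 8 h and 72 h in every fit run, without each array in turn included. Only Sgk1 and Sgk2 at 72 h changed sides of the threshold. Sgk1 passed with array weights (-0.53) and 2 residual components (-0.55), the latter a fit that can lower the error but not move a difference. Without 1 array the Sgk1 difference lay between -0.63 and -0.43, and Sgk1 passed in 2 of 46 fits. Sgk2 passed under every alternative except the loss of any 72 h array or of 1 of 5 arrays at 0 h or 8 h, with differences of -0.47 to -0.42.

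The number of probesets called depended on the fit. Residual components can lower the error but not move a difference, so more calls follow from their construction. For the other fits the cause was not tested. The number was 1079, 251, 195 and 0 at 0 h, 8 h, 72 h and 7 d in the main fit. With the compared groups only it was 287, 36 and 404 at 0 h, 8 h and 72 h. Array weights gave 476 at 8 h and 1151 at 72 h, and 2 residual components gave 2258, 675, 1123 and 63. Without 1 array it lay between 689 (without CIE 0 h replicate 57) and 1459 at 0 h, 162 (without Ctrl 8 h replicate 42) and 290 at 8 h, 28 (without Ctrl 72 h replicate 68) and 375 (without Ctrl 0 h replicate 48) at 72 h, and 0 and 1 at 7 d. List genes called at 72 h were 3, against 11 with residual components, 8 at a threshold of 0.05 and 0 to 5 without 1 array. At 8 h they were 14, against 4 with the compared groups only.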
